A study of Enchytraeus crypticus with 54 samples.

Results

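The comparison set worms kept for 7 days in soil without added copper (Control 7 days) against worms kept for 3 days in the same soil (Control 3 days). Both groups were chosen from the sample titles, which gave 3 arrays each, or 6 of the 54 arrays of the series. The animals were adult *Enchytraeus crypticus* with a developed clitellum, and each array held the RNA of a pool of 20 whole worms. All worms stayed in a natural soil from the Hygum site in Denmark and, as the methods of the study state, received no food during the exposure. The other day 3 groups set beside the controls were CuNO3 (copper salt), Cu-NPs (copper nanoparticles), Cu-NWires (copper nanowires) and Cu-Field (soil with field aged copper), each at EC20 and at EC50. EC20 and EC50 are the concentrations that lower reproduction by 20% and 50%, so the forms were matched on effect and not on copper concentration. The same 8 treatments were also sampled at day 7, with 3 arrays per group throughout.

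*E. crypticus* is a small white potworm that lives in the litter and upper soil, where it feeds on decaying plant matter and microorganisms. It is a hermaphrodite that lays eggs in cocoons, and the clitellum is the glandular band that secretes the cocoon. Worms moved from culture into a test soil meet a change of substrate, moisture and food, and a control sampled at 2 times measures what changes in them without an added toxicant. In such a whole-body pool, fewer cells of a type and less RNA per cell cannot be told apart.

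Of 43750 non-control probes, 19499 (44.6%) had a signal flagged as positive and significant on all 54 arrays and were kept. Of these, 9143 were designed on assembled contigs and 10356 on single sequence reads. The files pair the probes with no gene name, so no function is given below, and the label of adult worms was not checked against marker genes. The level of a probe is its log2 processed signal minus the median of its array, and a log2 change is a difference between mean levels. The median processed signal of the kept probes was 47.5 to 115 on the control 7 days arrays and 52.9 to 81.2 on the control 3 days arrays. Over the whole series it was 35.9 to 143. Pearson correlations of log2 signal between arrays lay between 0.832 and 0.99, with the lowest value within a group at 0.882. One control array stood apart. Replicate 3 of control 7 days had a median signal of 47.5, against 114 and 115 for replicates 1 and 2, and results that rest on it are given below with and without it.

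Expression in unspiked soil changed between the days. In limma with Benjamini-Hochberg adjustment over all kept probes, 609 of 19499 probes differed between control 7 days and control 3 days (percent called 3.12). Of these, 359 were higher at 7 days (1.84% of all probes) and 250 were lower (1.28%), and they are called risen and fallen probes in what follows. At an unadjusted p under 0.05 there were 3977 probes. The adjusted p was 0.0498 for the called probe nearest to the threshold of 0.05 and 0.0501 for the nearest probe that was not called. Since these values chose the probes, their changes are given as a description. The median log2 change of the risen probes was 1.22 (2.33-fold) with a range of 0.57 to 3.05, and 275 of them passed 2-fold and 24 passed 4-fold. The median of the fallen probes was -1.43 (2.69-fold) with a range of -3.63 to -0.60, and 208 of them passed 2-fold and 51 passed 4-fold. Over all kept probes the median log2 change was -0.07, and 2527 probes (13%) passed 2-fold. The arrays of the 2 days did not overlap for 355 of the 359 risen and 242 of the 250 fallen probes. Over all kept probes this held for 2199 higher (11.3%) and 2373 lower (12.2%), and since the same arrays chose the probes nothing is read from it.

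These directions are relative to the median of the array. After Quantile normalization 884 probes were called (64.7% of them higher at 7 days), and 580 of the 609 were among them with the same sign. SVCD normalization, which the study developed and which does not force the medians of the groups to agree, shifted the median log2 change of all probes to 0.42 and called 4002 probes, 97.4% of them higher. Under SVCD all 359 risen probes stayed above 0 and all 250 fallen probes stayed below 0. With no normalization the median shift was 0.37 and 363 probes were called, 90.4% of them higher. On the scale of the spike-in transcripts the median shift was 1.3, 6537 probes were called with 99.9% higher, and 134 of the 250 fallen probes were below 0. The statement that a fallen probe was lower at 7 days therefore holds relative to the other probes and, for the remaining fallen probes, is turned on the spike-in scale.

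The count also depended on single arrays. Without replicate 3 of control 7 days, 1868 probes were called, of which 777 were higher and 1091 lower (41.6% higher), and 542 of the 609 were among them. Leaving out any of the other 5 control arrays gave 87 to 342 calls. A fit on the 6 control arrays alone called 0 probes, with 3145 at an unadjusted p under 0.05. With scan day as a block 596 probes were called. Within scan day 1 (1 array of control 7 days and 2 of control 3 days) and within scan day 2 (2 arrays of control 7 days and 1 of control 3 days) 0 were called, with 1895 and 1398 at an unadjusted p under 0.05. One slide, numbered 1 here, held a control array of both days, namely replicate 3 of each. Within that pair the median log2 difference of day 7 over day 3 was 1.05 for the risen probes, of which 357 of 359 were above 0, and -1.07 for the fallen probes, of which 249 of 250 were below 0. The pair had similar signals (47.5 for day 7 and 52.9 for day 3) and is part of the data that chose the probes.

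Contigs, as opposed to single reads, made up 37.6% of the risen probes and 57.2% of the fallen probes, against 46.9% of all kept probes. On all 6 control arrays, 71.9% of the risen and 89.6% of the fallen probes were well above background, against 79.1% of all. When the kept probes were ordered by signal and split into 4 equal parts, the share called was 2.07% in the dimmest part, 3.61% and 4.14% in the next and 2.67% in the brightest. Among the 24251 non-control probes that were not kept, 223 were flagged positive on all 3 arrays of control 7 days and on 0 of 3 of control 3 days, and 40 showed the reverse. The median signal was also higher on 2 of the 3 control 7 days arrays than on any control 3 days array, and its part in this difference was not tested.

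Probes were named by size of change among those whose arrays did not overlap, that were well above background on all 6 control arrays and that Quantile normalization called with the same sign. This rule was met by 255 risen and 188 fallen probes, and the first 2 of each are given. CUST_49709_PI427420766_b, designed on the single read GYUW2K402GMYHQ, had levels of 1.99, 1.6 and 1.37 in control 7 days, against -1.28, -0.85 and -1.22 in control 3 days. All day 7 arrays thus lay far above all day 3 arrays, with a log2 change of 2.78 ± 0.38 (SE), or 6.85-fold (limma adjusted p = 0.000156). CUST_5759_PI427420766_b (contig23889) had levels of 2.54, 2.33 and 2.32 in control 7 days, against -0.87, 0.26 and -0.39 in control 3 days. Its log2 change was 2.73 ± 0.56 (SE), or 6.61-fold (limma adjusted p = 0.00665). The day 7 arrays of this probe agreed closely, and the spread lay in day 3. Without replicate 1 of control 3 days its limma adjusted p was 0.0561.

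CUST_23571_PI427420766_b (contig07971) had levels of -0.40, -0.93 and -1.46 in control 7 days, against 2.97, 2.34 and 2.80 in control 3 days. It fell by 3.63 ± 0.85 on the log2 scale, the most of the probes that met the rule (12.4-fold, limma adjusted p = 0.0151). On the spike-in scale the fall was 2.26 and with no normalization 3.19, and neither was called (limma adjusted p of 0.111 and 0.065). The call was also lost with slide as a fixed block (limma adjusted p = 0.0671), in a fit of the 6 control arrays alone (limma adjusted p = 0.0679) and without any 1 of 4 of the 6 control arrays (limma adjusted p of 0.053 to 0.0746). CUST_86374_PI427420766_b (read GYUW2K402HGSSD) had levels of 0.00, 1.14 and 0.44 in control 7 days, against 4.14, 4.58 and 3.42 in control 3 days. It fell by 3.52 ± 0.81 on the log2 scale (11.5-fold, limma adjusted p = 0.0131). Its call was lost in a fit of the 6 control arrays alone (limma adjusted p = 0.0869) and without any 1 of 3 of the 6 control arrays (limma adjusted p of 0.0535 to 0.0883).

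**Figure D1:**
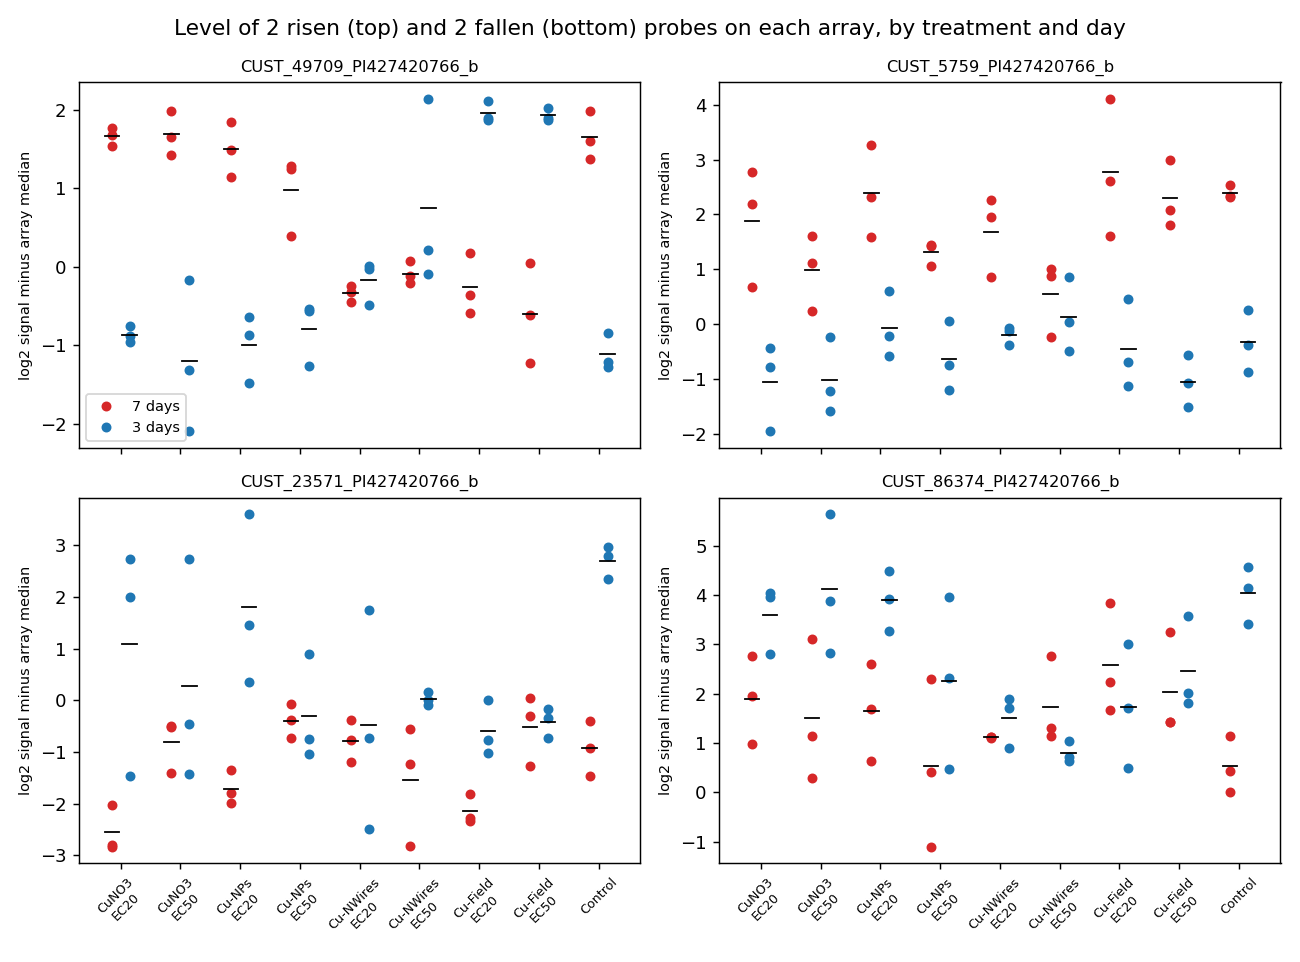
Level (log2 processed signal minus array median) of the 4 named probes on each array, for the 8 copper treatments and the control, with 7 days in red left of 3 days in blue and the mean of 3 arrays as a black line. In the control, CUST_49709_PI427420766_b and CUST_5759_PI427420766_b (top) were higher at 7 days by 2.78 and 2.73 log2 units, while in Cu-Field the first of them was lower at 7 days and the other higher.

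To place the copper groups of day 3 along the control change, a time index was computed per array as the mean level of the risen probes minus the mean level of the fallen probes. It was scaled so that control 3 days averaged 0 and control 7 days averaged 1. Any offset of an array cancels in this difference. The control arrays chose the probes, so every other group is drawn toward the middle of the scale. When a control array was left out of the choice and of the scale and then placed, the control 3 days arrays lay at 0.12, 0.33 and 0.18 and the control 7 days arrays at 0.90, 0.86 and 0.24. Replicate 3 of control 7 days, placed in this way, therefore lay inside the range of the control 3 days arrays.

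By their means, the copper groups of day 3 lay in 2 ranges of the index, with Cu-NPs EC50 between them. Cu-NWires lay at 0.84 ± 0.13 (SD, n = 3) at EC20 and 0.79 ± 0.06 at EC50, and Cu-Field lay at 0.82 ± 0.15 at EC20 and 0.73 ± 0.13 at EC50. These 4 groups were near control 7 days, although the worms had been in the soil for 3 days. CuNO3 lay at 0.30 ± 0.06 at EC20 and 0.30 ± 0.19 at EC50, and Cu-NPs at 0.34 ± 0.18 at EC20 and 0.58 ± 0.08 at EC50. The values of CuNO3 at both levels and of Cu-NPs EC20 overlapped the range of the left-out control 3 days arrays (0.12 to 0.33). They also overlapped that of the left-out control 7 days arrays (0.24 to 0.90), whose low end is replicate 3. The left-out arrays were placed on other probe lists than the copper groups, so the overlap does not assign these groups to a day. Cu-NPs EC50, with arrays at 0.50, 0.61 and 0.65, lay above the Cu-NPs EC20 arrays at 0.13, 0.48 and 0.39. For the other forms the arrays of EC50 and EC20 overlapped.

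Over single arrays, the 12 of Cu-NWires and Cu-Field lay between 0.58 and 0.98 (median 0.78) and the 12 of CuNO3 and Cu-NPs between 0.09 and 0.65 (median 0.39), so that the ranges overlapped only between 0.58 and 0.65. On 5 slides both kinds of copper forms were present at day 3, with 1 Cu-NWires or Cu-Field array on each. That array was Cu-NWires on slides 4, 7, 11 and 14 and Cu-Field EC20 on slide 13. It lay above every CuNO3 or Cu-NPs array of day 3 on its slide. The places were 0.98 against 0.43 and 0.50 on slide 4, and 0.82 against 0.33 and 0.48 on slide 7. They were 0.75 against 0.61 and 0.65 on slide 11, 0.98 against 0.39 for both others on slide 13, and 0.72 against 0.23 on slide 14. The other Cu-Field arrays of day 3 were on slides without a CuNO3 or Cu-NPs array of that day. For Cu-Field this rests on 1 array. Among arrays scanned on the first day, Cu-NWires and Cu-Field lay at 0.82 to 0.98 and CuNO3 and Cu-NPs at 0.09 to 0.50. Among those of the second day the ranges were 0.58 to 0.98 for Cu-NWires and Cu-Field and 0.23 to 0.65 for CuNO3 and Cu-NPs. The brightness of the arrays moved with the place, since the median signal was 84.9 to 143 for Cu-NWires and Cu-Field at day 3 and 45.3 to 88.5 for CuNO3 and Cu-NPs, and its part in the result was not tested. With the index rebuilt without replicate 3 of control 7 days, the means were 0.72 and 0.70 for Cu-NWires, 0.70 and 0.57 for Cu-Field, 0.13 and 0.12 for CuNO3, and 0.21 and 0.42 for Cu-NPs (EC20 before EC50 in each pair).

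**Figure D2:**
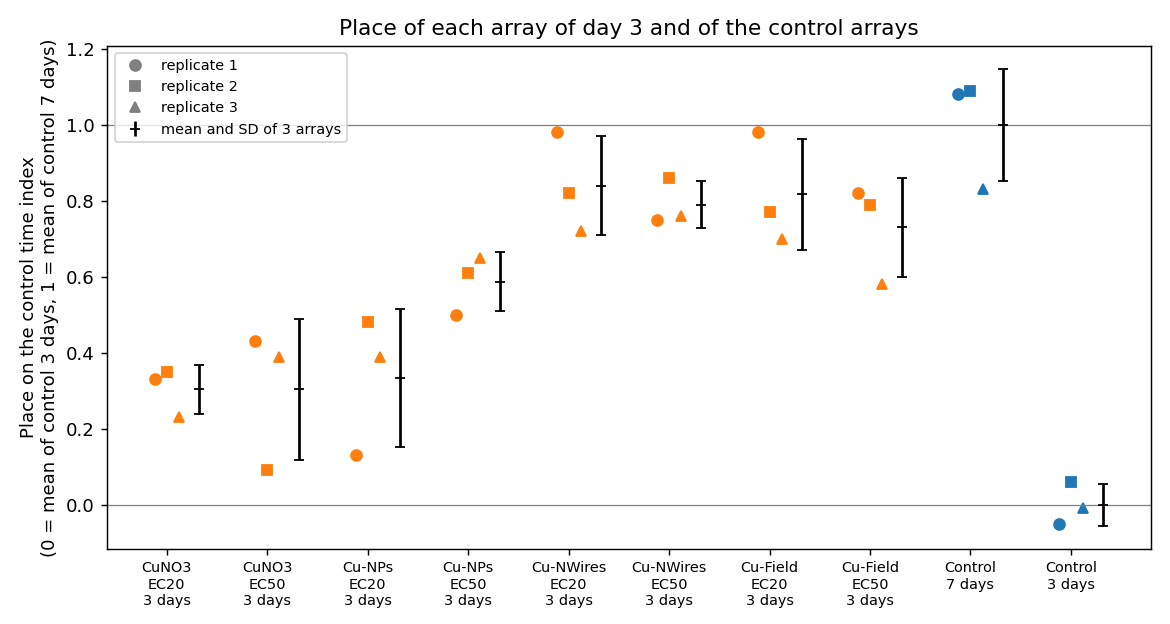
Place on the control time index (vertical axis, no unit, 0 for the mean of control 3 days and 1 for the mean of control 7 days) of each array of the 8 copper groups of day 3 in orange and of the control arrays in blue, with the mean and SD of 3 arrays beside them. The Cu-NWires and Cu-Field arrays lie between 0.58 and 0.98, and the CuNO3 and Cu-NPs arrays between 0.09 and 0.65.

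Probe by probe, the Cu-NWires and Cu-Field groups stood above the other copper groups for risen and for fallen probes. The order of the groups within each part differed between risen and fallen probes. The same probes and control arrays as in the index enter these counts, so they are a description and not separate evidence. The group mean was nearer to control 7 days than to control 3 days for 283 of the 359 risen probes in Cu-NWires EC20, 324 in Cu-NWires EC50, 320 in Cu-Field EC20 and 291 in Cu-Field EC50. In CuNO3 this held for 100 (EC20) and 126 (EC50), and in Cu-NPs for 78 (EC20) and 234 (EC50). Of the 250 fallen probes, 207 to 221 were nearer to control 7 days in the Cu-NWires and Cu-Field groups, 140 in Cu-NPs EC50, and 43 to 69 in the CuNO3 groups and Cu-NPs EC20. Some probes went past control 7 days. In Cu-NWires EC20 these were 114 risen and 98 fallen probes, and in CuNO3 EC20 they were 1 risen and 2 fallen.

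Counts over all probes ran the same way. Against control 7 days, Cu-Field EC20 of day 3 had 0 called probes (limma, with 813 at an unadjusted p under 0.05), and against control 3 days it had 809 (4.15% of all probes). Cu-Field EC50 had 44 (0.226%) against control 7 days and 214 (1.1%) against control 3 days. For Cu-NWires EC20 there were 20 (0.103%) against control 7 days and 2439 (12.5%) against control 3 days, and for Cu-NWires EC50 there were 47 (0.241%) and 1869 (9.59%). CuNO3 EC20 had 218 called probes (1.12%) against control 7 days and 0 against control 3 days (1088 at an unadjusted p under 0.05). CuNO3 EC50 had 924 (4.74%) against control 7 days and 13 (0.0667%) against control 3 days, and Cu-NPs EC20 had 133 (0.682%) against control 7 days and 0 against control 3 days (862 at an unadjusted p under 0.05). Cu-NPs EC50 was far from both, with 1531 called probes (7.85%) against control 7 days and 3530 (18.1%) against control 3 days. The root mean square difference over all kept probes gave a similar picture. For Cu-Field EC20 it was 0.42 to control 7 days and 0.761 to control 3 days, for CuNO3 EC20 it was 0.761 to control 7 days and 0.441 to control 3 days, and for Cu-NPs EC50 it was 0.82 to control 7 days and 0.815 to control 3 days. Between the 2 controls it was 0.719.

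**Figure D3:**
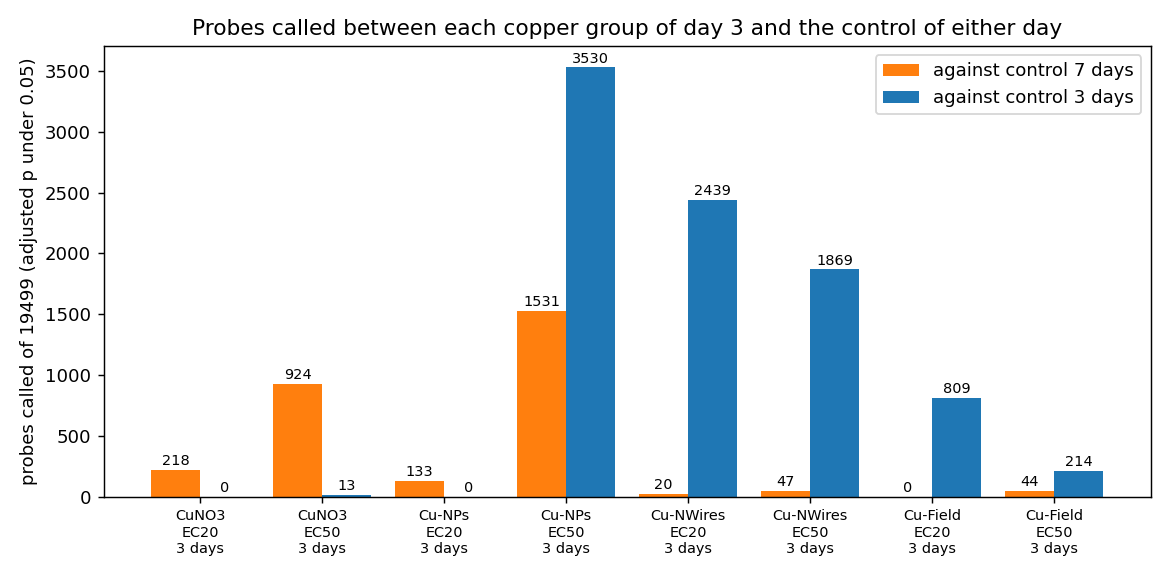
Number of probes called (limma adjusted p under 0.05, of 19499) between each copper group of day 3 and control 7 days in orange, and control 3 days in blue. Cu-NWires and Cu-Field had 0 to 47 called probes against control 7 days and 214 to 2439 against control 3 days.

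These counts moved with the setting. With SVCD normalization the 4 Cu-NWires and Cu-Field groups of day 3 had 3 to 461 called probes against control 7 days. Against control 3 days they had 2463 to 8691. With slide as a fixed block, Cu-NWires EC20 had 0 against control 7 days and 375 against control 3 days, and Cu-NWires EC50 had 5 and 1008. Under that setting Cu-Field EC20 had 0 and 11, and Cu-Field EC50 had 0 against either control. No copper group of day 3 shared a slide with control 3 days, and 6 of the 8 shared none with control 7 days.

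The copper forms could also be set against each other without the arrays that chose the probes. This comparison was added after the data had been seen. Cu-Field at either level and Cu-NWires EC50 shared no slide with CuNO3 of the same level at day 3. Cu-NWires EC20 shared slides 7 and 14 with CuNO3 EC20. No fit with slide as a block was run here, so the part of the slides was not tested. At EC20 of day 3, Cu-Field was higher than CuNO3 in 84 of the 359 risen probes (23.4%, against 1.84% of all probes called higher) and lower in 48 of the 250 fallen probes (19.2%, against 3.72%). Cu-NWires at EC20 was higher in 21 risen probes (5.85%, against 0.308%) and lower in 39 fallen probes (15.6%, against 1.65%). At EC50, Cu-NWires was higher than CuNO3 in 75 risen probes (20.9%, against 2.65%) and lower in 45 fallen probes (18%, against 5.11%). Cu-Field at EC50 was higher in 24 risen probes (6.69%, against 0.282%) and lower in 7 fallen probes (2.8%, against 0.354%). In these 4 comparisons 0 risen probes were called lower and 0 fallen probes higher. Cu-NPs differed from CuNO3 in 0 probes at EC20 (454 at an unadjusted p under 0.05) and in 18 at EC50 (percent called 0.0923), of which 1 was a fallen probe and lower. Quantile normalization moved 2 of these comparisons by more than 1.5 times. For Cu-NWires EC20 it called 45 probes in place of 381 (41 shared), among them 10 risen probes higher (0.108% of all probes) and 9 fallen probes lower (0.123%). For Cu-Field EC50 it called 268 in place of 124, among them 35 risen probes higher (0.718% of all) and 16 fallen probes lower (0.656%). All comparisons shared 1 estimate of the spread of each probe, so a probe with a small spread was called more easily in every one of them.

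The time change of the copper groups themselves rested on arrays that had not chosen the probes. CuNO3 EC50 had the most calls in the direction of the control. Between its day 7 and day 3, 127 of the 359 risen probes were called higher (35.4%, against 5.6% of all probes) and 122 of the 250 fallen probes lower (48.8%, against 11.6%), with 0 called in the opposite direction (limma). The median log2 change was 0.63 for the risen and -0.99 for the fallen probes, against -0.18 for all probes. In Cu-NPs EC50, 30 risen probes were called higher (8.36%, against 1.3%), 1 lower, and 21 fallen probes lower (8.4%, against 1.83%). In CuNO3 EC20, 15 risen probes were higher (4.18%, against 0.154%) and 4 fallen probes lower (1.6%, against 0.195%), and in Cu-NPs EC20 the counts were 25 (6.96%, against 0.205%) and 1 (0.4%, against 0.0359%). Medians for the risen probes were 0.34 in CuNO3 EC20, 0.51 in Cu-NPs EC20 and 0.21 in Cu-NPs EC50, and for the fallen probes -0.65, -0.50 and -0.56 in the same order.

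In Cu-NWires no probe was called. At both levels 0 probes were called between day 7 and day 3 (530 at EC20 and 931 at EC50 had an unadjusted p under 0.05). The median log2 change was 0.01 for the risen probes at both levels, and -0.01 at EC20 and -0.11 at EC50 for the fallen probes. With arrays at 0.89, 0.73 and 0.94 on day 7 and 0.98, 0.82 and 0.72 on day 3, the places of Cu-NWires EC20 overlapped between the days, and so did those of Cu-NWires EC50. By day 7 the 8 copper groups lay between 0.69 (CuNO3 EC20) and 0.94 (Cu-Field EC50) on the index.

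**Figure D4:**
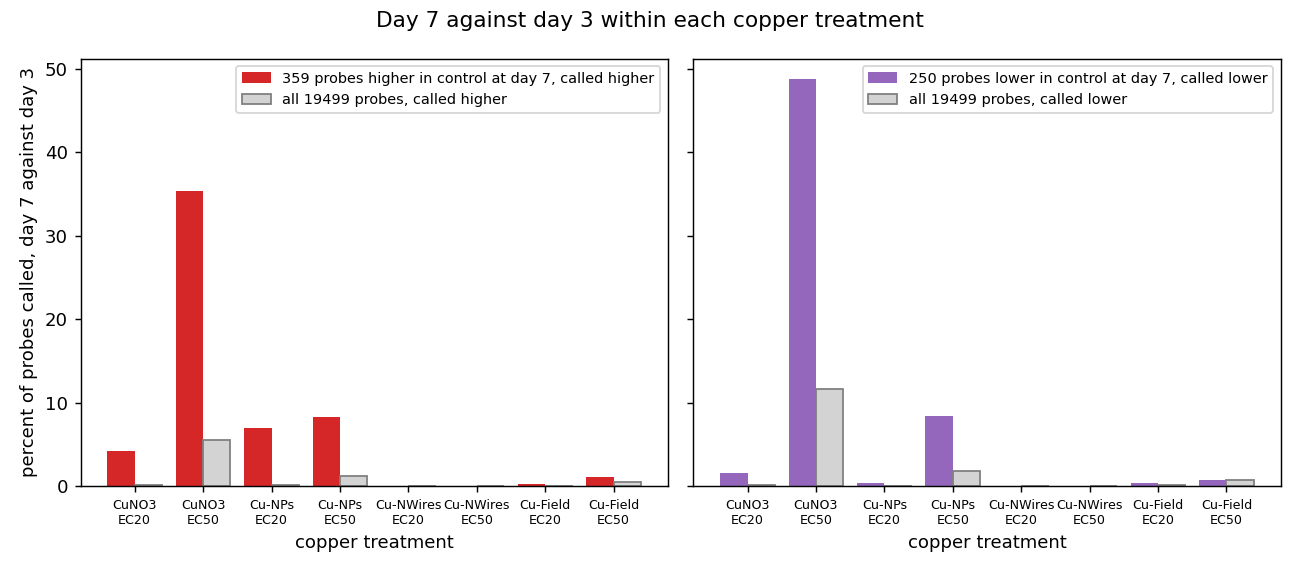
Percent of probes called between day 7 and day 3 within each copper treatment (limma adjusted p under 0.05), for the risen probes called higher (left) and the fallen probes called lower (right), beside the percent of all 19499 probes called in the same direction in grey. CuNO3 EC50 stands highest with 35.4% of the risen and 48.8% of the fallen probes, and Cu-NWires is at 0 in both panels.

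Of the 359 risen probes, 140 (39%) were called higher in the time comparison of at least 1 copper treatment and 39 (10.9%) in at least 2, against 6.43% and 1.13% of all probes. Of the 250 fallen probes, 125 (50%) were called lower in at least 1 and 23 (9.2%) in at least 2, against 13.3% and 1.22% of all. Most of these calls came from CuNO3 EC50, which called 127 of the 140 risen and 122 of the 125 fallen probes. The most for any probe was 6 of the 8 treatments, in which the named risen probe CUST_5759_PI427420766_b was called higher. As 0 probes were called between the days in Cu-NWires, 6 was also the highest number possible. Other lists were the 777 higher and 1091 lower probes chosen without replicate 3 of control 7 days. With them, CuNO3 EC50 had 312 (40.2%, against 5.6% of all probes) called higher and 574 (52.6%, against 11.6%) called lower. Cu-NWires had 0 of either at both levels, which any list would give, since 0 of all probes were called there. In Cu-Field, 7 of the 777 were called lower at EC20 (0.108% of all probes were) and 10 at EC50 (0.718% of all). Called higher were 1 (0.129%, against 0.0103%) and 9 (1.16%, against 0.523%). With slide as a fixed block, 0 probes were called between the days of CuNO3 EC50, CuNO3 EC20 and Cu-NPs EC20, and 2 in Cu-NPs EC50. The 2 days shared no slide in 7 of the 8 copper treatments, so their time change was told apart from the slide only through other groups.

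In Cu-Field part of the risen probes ran against the control, while the medians of the risen and fallen probes had the sign of the control. The median log2 change between day 7 and day 3 was 0.096 at EC20 and 0.243 at EC50 for the risen probes. For the fallen probes it was -0.188 and -0.345, against 0.029 and -0.074 for all probes. The change was above 0 in 213 risen probes at EC20 and in 240 at EC50. Between day 7 and day 3, 7 risen probes were called lower at EC20 (1.95%, against 0.108% of all probes) and 11 at EC50 (3.06%, against 0.718%). Called higher were 1 risen probe at EC20 (0.279%, against 0.0103%) and 4 at EC50 (1.11%, against 0.523%), and 1 and 2 fallen probes were called lower. All 7 of the EC20 probes were among the 11 of EC50. The 2 levels share no array, but they share slides and 1 estimate of the spread of each probe. At day 3, replicates 2 and 3 of both levels were on slide 2, and at day 7 slide 5 held arrays of both levels. The part of the slides in this overlap was not tested. The median log2 change of these 11 probes was -1.56 at EC20 and -1.68 at EC50. All 11 stayed below 0 when any 1 of the Cu-Field arrays was left out, but the Cu-Field arrays had picked them, so nothing is read from it. With 1 array left out, the number of risen probes called lower was 0 to 7 at EC20 and 3 to 9 at EC50. It was 0 without replicate 1 of Cu-Field EC20 3 days and 0 without replicate 2 of Cu-Field EC20 7 days. With slide as a fixed block 0 probes were called at either level. The median level of the 11 probes was 1.56 and 1.28 in Cu-Field EC20 and EC50 of day 3, close to 1.44 in control 7 days, whereas it was -0.26 and -0.60 in Cu-Field EC20 and EC50 of day 7 and -1.12 in control 3 days. A low level at day 7 was not seen in Cu-Field alone, since the median was -0.20 in Cu-NWires EC20 on both days, and -0.09 at day 7 and 0.68 at day 3 in Cu-NWires EC50. These 11 were picked by their values, so their levels are a description.

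The 2 named risen probes showed both behaviours. CUST_49709_PI427420766_b had a mean level of -0.26 ± 0.39 (SD, n = 3) in Cu-Field EC20 of day 7 and 1.96 ± 0.14 in Cu-Field EC20 of day 3, so that it fell by 2.22 ± 0.38 on the log2 scale (limma adjusted p = 0.00637). At Cu-Field EC50 it fell by 2.53 ± 0.38 (limma adjusted p = 0.00144). In CuNO3 EC20 and EC50 and in Cu-NPs EC20 the probe was higher at day 7 by 2.53, 2.89 and 2.49 log2 units (limma adjusted p of 0.00117, 7e-05 and 0.0019), much as in the control. In Cu-NWires EC20 its mean level was -0.34 at day 7 and -0.17 at day 3, with no change that could be told from the spread (log2 change -0.16 ± 0.38, limma adjusted p = 1).

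CUST_5759_PI427420766_b was the counterpart. Its mean level was 2.78 ± 1.26 in Cu-Field EC20 of day 7 and -0.46 ± 0.82 in Cu-Field EC20 of day 3, a log2 change of 3.24 ± 0.56 (limma adjusted p = 0.00637), and at Cu-Field EC50 the change was 3.34 ± 0.56 (limma adjusted p = 0.00357). It was also higher at day 7 in all 4 CuNO3 and Cu-NPs treatments, by 1.94 to 2.94 log2 units (limma adjusted p of 0.0145 to 0.0469). At day 3 its mean level in the 8 copper groups lay between -1.06 and 0.13, near the -0.33 ± 0.57 of control 3 days and below the 2.39 ± 0.13 of control 7 days. On this probe, Cu-NWires and Cu-Field of day 3 thus sat with control 3 days, unlike on most risen probes.

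The named fallen probes differed from both. CUST_86374_PI427420766_b had a mean level of 1.5 ± 0.54 in Cu-NWires EC20 and 0.79 ± 0.22 in Cu-NWires EC50 of day 3, against 4.04 ± 0.58 in control 3 days (limma adjusted p of 0.035 and 0.0136). At day 3 it stayed at 3.61 ± 0.69 in CuNO3 EC20, at 4.12 ± 1.43 in CuNO3 EC50 and at 3.89 ± 0.61 in Cu-NPs EC20. Between these lay Cu-Field EC20 at 1.74 ± 1.26, Cu-Field EC50 at 2.47 ± 0.97 and Cu-NPs EC50 at 2.26 ± 1.74, none of them called against control 3 days (limma adjusted p of 0.0894, 0.351 and 0.118). CUST_23571_PI427420766_b varied widely within some groups at day 3, with levels of -1.46 to 2.73 among the 3 arrays of CuNO3 EC20 and -2.48 to 1.74 among those of Cu-NWires EC20, against 2.34 to 2.97 in control 3 days. In other day 3 groups its arrays lay close together, at 0.02 ± 0.13 in Cu-NWires EC50, -0.42 ± 0.29 in Cu-Field EC50 and -0.59 ± 0.53 in Cu-Field EC20, near the -0.93 ± 0.53 of control 7 days. The control 3 days arrays also chose both probes.

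The difference between the time changes was tested as an interaction in the same model, with the control arrays in every comparison. It was called for 0 probes in either CuNO3 group and in Cu-NPs EC20 (limma, with 1665, 1792 and 1065 at an unadjusted p under 0.05). There were 3 such probes in Cu-NPs EC50 (0.0154% of all), 7 in Cu-NWires EC20 (0.0359%), 22 in Cu-NWires EC50 (0.113%), 118 in Cu-Field EC20 (0.605%) and 126 in Cu-Field EC50 (0.646%). In Cu-Field EC20, 65 of the 118 were risen probes with a lower time change than in the control, 9 were fallen probes with a higher one and 44 were neither. The control arrays that chose the risen and fallen probes also enter this test, which fixes the direction of most of them.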

How the data were processed

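The deposited intensity values used here are the processed signals that Agilent Feature Extraction (version 10.7.3.1) gave after background subtraction, not yet on a log scale and not normalized across arrays. The tables held 0 columns of other series. The spots carry one Cy3 label on 54 arrays from 14 slides, scanned on 2 days.

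Groups came from the sample titles. Probes flagged positive and significant on all 54 arrays were kept, signals were taken to log2 and the median of each array was subtracted. Tests used limma 3.58.1 in R 4.3.3 (files read with data.table, version 1.17.8), with 1 mean per group over all 54 arrays and Benjamini-Hochberg adjustment within each of 39 comparisons at 0.05. With 3 arrays per group, the number of arrays limited the precision; the median SD of a probe between arrays was 0.46 log2. SVCD used the functions published with the study. The files hold no mean signal, so normexp (offset 50) was run on median foreground and background. Steps were tested on simulated data. Figures were drawn in Python 3.11.15 with matplotlib 3.10.9.

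Named probes were the first by size of change among those called, not overlapping between the controls, well above background on all 6 control arrays and called after Quantile normalization. The groups, lists and tests were chosen with earlier results of these data known. Alternatives were other scalings, background corrections, filters, spread estimates, slide, scan day and replicate blocks, and leaving out each array. Places within slides and scan days, the slide pair, the comparisons with CuNO3 and the lists without 1 array were added after the data had been seen. Replicate numbers did not pair the arrays.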

Additional observations from a re-analysis of the deposited data

Results flagged for a closer look

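The day 7 minus day 3 change differed between a copper treatment and the control by a test of the difference itself (limma interaction, shared control arrays) for 3 probes in Cu-NPs EC50, 7 in Cu-NWires EC20, 22 in Cu-NWires EC50, 118 in Cu-Field EC20 and 126 in Cu-Field EC50.

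One named probe was part of these. For CUST_49709_PI427420766_b the time change in copper minus that in control was -2.94 log2 units in Cu-NWires EC20, -3.61 in Cu-NWires EC50, -5.00 in Cu-Field EC20 and -5.30 in Cu-Field EC50. The probe was named for its change of 2.78 in the control, which each of these differences subtracts, and in Cu-NWires EC20 its own change was -0.16 ± 0.38 (limma adjusted p = 1). In Cu-Field the probe was lower on all 3 day 7 arrays than on all 3 day 3 arrays at both levels, and in the control it was higher on all 3.

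Some probes outside the kept ones were also called. When all 43750 non-control probes were tested without a filter, 262 were called between control 7 days and control 3 days. Of these, 77 were among the 24251 probes outside the filter, 13 of them higher and 64 lower at 7 days. Probes outside the filter were not flagged positive and significant on every array. Their flags ran the other way, with 223 positive on all control 7 days arrays and 0 of control 3 days, and 40 the reverse. The part of the array medians, which were 114 and 115 on 2 of the control 7 days arrays, was not tested.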

How the results depend on the processing

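The 609 calls of control 7 days against control 3 days became 6537 on the spike-in scale, 363 without normalization, 4002 with SVCD, 66 with normexp and 262 with all non-control probes tested. They became 0 on the 6 control arrays alone, within scan day 1, within scan day 2, with the methods' test on 6 arrays (2932 at an unadjusted p under 0.05) and with the replicate block on the 6 control arrays. Over all 54 arrays the replicate block gave 558 calls and slide as a fixed block 497. Replicate numbers gave correlations of array deviations of -0.33, 0.45 and 0.22 between the controls, so they were not used as pairs. Without 1 control array the range was 87 to 1868, with 1868 without replicate 3 of control 7 days.

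Against control 7 days, CuNO3 EC20 of day 3 went to 409 with Quantile, 3516 with SVCD and 22 with the slide block, CuNO3 EC50 to 5130 with SVCD and 86 with the slide block, Cu-NPs EC20 to 1486 and 5, and Cu-NPs EC50 to 2804 and 17 under the same 2 settings. Cu-NWires EC20 gave 12 with Quantile, 285 with SVCD and 0 with the slide block, Cu-NWires EC50 461 with SVCD and 5 with the slide block, Cu-Field EC20 3 with SVCD, and Cu-Field EC50 0 with the slide block. Leaving out 1 array gave 13 to 1916, 126 to 2898, 36 to 279 and 477 to 2278 for these CuNO3 and Cu-NPs groups, and 0 to 19, 3 to 64, 0 to 2 and 5 to 38 for the Cu-NWires and Cu-Field groups, EC20 before EC50. Replicate 3 of control 7 days decided several of these limits, namely 1916, 2898, 2278, 0 (Cu-NWires EC20) and 3.

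Against control 3 days, CuNO3 EC50 went to 46 with Quantile, 0 with the slide block and 1 with the replicate block, and Cu-NPs EC50 to 159 with the slide block. SVCD gave 8691 calls in Cu-NWires EC20, where the slide block gave 375, and 8361 in Cu-NWires EC50, where it gave 1008. SVCD gave 8123 in Cu-Field EC20, where the slide block gave 11, and 2463 in Cu-Field EC50, where the slide block gave 0 and Quantile 437. Leaving out 1 array gave 0 for CuNO3 EC20, 0 to 9 for CuNO3 EC50, 0 to 3 for Cu-NPs EC20, 1369 to 4679 for Cu-NPs EC50, 791 to 2150 and 288 to 1274 for Cu-NWires, and 32 to 692 and 8 to 141 for Cu-Field, with 32 without Cu-Field EC20 3 days replicate 1 and 8 without Cu-Field EC50 3 days replicate 1.

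Between day 7 and day 3, SVCD gave 1516 calls in CuNO3 EC20, 9485 in CuNO3 EC50, 161 in Cu-NPs EC20, 4490 in Cu-NPs EC50, 6 in Cu-NWires EC50 and 5479 in Cu-Field EC50. The slide block gave 0 in CuNO3 EC20, CuNO3 EC50, Cu-NPs EC20, Cu-Field EC20 and Cu-Field EC50 and 2 in Cu-NPs EC50. The replicate block gave 154 in Cu-Field EC50. Leaving out 1 array gave 2 to 618, 667 to 3197, 5 to 49, 8 to 1408, 0 to 1, 0 to 4, 0 to 23 and 10 to 400, in the order CuNO3, Cu-NPs, Cu-NWires and Cu-Field with EC20 before EC50.

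On the index, CuNO3 EC20 lay at 0.19 with normexp and 0.13 when all kept probes were projected on the difference of the controls, CuNO3 EC50 at 0.11 and 0.10, Cu-NPs EC50 at 0.46 and 0.49 (same order), and Cu-NWires EC50 at 0.87 in the projection. Leaving out 1 control array gave 0.13 to 0.37 and 0.12 to 0.35 for CuNO3, 0.21 to 0.42 and 0.42 to 0.62 for Cu-NPs, 0.68 to 0.86 and 0.68 to 0.84 for Cu-NWires, and 0.70 to 0.87 and 0.57 to 0.78 for Cu-Field. The 4 named probes kept their sign under every alternative run, but all lost the call on the 6 control arrays alone and within either scan day. The causes of these moves were not tested. Some of the settings used fewer arrays or more terms in the model. The number of arrays, 3 per group, limits what could be detected.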
